A study of Mus musculus with 16 samples.

Results

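The antioxidant enzymes described here are 10 genes, *Sod1*, *Sod2*, *Cat*, *Gpx1*, *Gpx4*, *Prdx1*, *Prdx2*, *Prdx5*, *Prdx6* and *Txn1*, taken by symbol from the 24421 gene symbols that were counted, and all 10 were found. They were measured in monocytic (M-MDSCs) and granulocytic (G-MDSCs) myeloid-derived suppressor cells sorted from the spleens of 8 mice. The labels give C57BL/6 for the WT mice and the *Nlrp3*-/- mice, while the study's methods name purchased C57BL/6J mice and *Nlrp3*-/- mice of another source on a C57BL/6 background, so a difference of substrain and the genotype cannot be told apart. Every mouse carried a subcutaneous tumor grown from implanted B16.F10 cells, a mouse melanoma line, so no library came from a tumor-free animal. In the *Nlrp3*-/- mice an EGFP cassette interrupts *Nlrp3* in the germline, so all host cells lack the gene and not the sorted cells alone. The study reports that B16.F10 tumors grew less in *Nlrp3*-/- mice and that the balance of M-MDSCs and G-MDSCs in the spleen was shifted. Tumor size and genotype therefore cannot be told apart here. Both subsets of 4 WT and 4 *Nlrp3*-/- mice were sequenced by QuantSeq, which reads the 3′ end of a polyadenylated transcript, giving 4 groups of 4 libraries with 1 mouse behind each. The mice were between 6 and 12 weeks old by the study's general statement, the sorted cells were over 95% pure, 15 or 17 cycles of amplification were used without the libraries being named, and the day of the sort was not stated for the sequenced samples.

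Superoxide dismutases turn superoxide into hydrogen peroxide, *Sod1* in the cytosol and *Sod2* in the mitochondrial matrix. Hydrogen peroxide is then removed by catalase in peroxisomes, by glutathione peroxidases that draw on glutathione, and by peroxiredoxins, most of which are reduced again by thioredoxin. Phagocytes make superoxide with their own NADPH oxidase, and reactive oxygen species are among the products by which MDSCs are known to restrain T cells.

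Libraries held 2295967 to 6079866 counts, and 3 counts, the least amount read as present, stood for 0.493 to 1.31 CPM, the unit of counts scaled to the size of the library. These floors cover counting error only. The 10 genes together took 0.175% to 0.687% of the counts of a library. Levels below are CPM after TMM scaling over all 16 libraries, and because each transcript gives reads from its 3′ end, they are compared between libraries and not between genes. *Nlrp3* itself stood at 40.7 to 88.9 CPM in WT and 0.514 to 1.88 CPM in *Nlrp3*-/- M-MDSCs, and at 252 to 331 CPM in WT and 5.51 to 13.6 CPM in *Nlrp3*-/- G-MDSCs, in keeping with the genotype labels. Of 6 monocyte and M-MDSC markers all 6 were lower in G-MDSCs than in M-MDSCs of either genotype, and of 9 neutrophil and G-MDSC markers tested all 9 were higher. The WT M-MDSC library of replicate 2 stood apart, with summed neutrophil markers at 8756 CPM against 1454 to 1869 CPM in the other 3 of its group, primary granule markers at 305 against 76.2 to 118 CPM and proliferation markers at 522 against 154 to 181 CPM. In bulk samples fewer cells of a type and less RNA per cell cannot be told apart.

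Promoters are shown for 3 members that stood far apart between the subsets, *Sod1* and *Prdx1*, which were lower in G-MDSCs, and *Txn1*, which was higher. RefSeq start sites on GRCm38.p6 were matched for 9 of the 10 genes, all but *Prdx6*. Each window runs from 250 bases before to 50 bases after the start, at chr16:90220512-90220811 on the + strand for *Sod1*, chr4:116685349-116685648 on the + strand for *Prdx1* and chr4:57956362-57956661 on the - strand for *Txn1*. Capitals mark the core of the antioxidant response element, searched as TGACNNNGC on both strands, which had a match in the windows of *Sod1* (56 bases before the start) and *Prdx1* (133 bases before it), in none of the other matched members' windows, and in 12.4% of 32851 mouse promoters of that length. *Cat* is not shown and had no match. It was lower in G-MDSCs by more than *Sod1*, at a log2 fold change of -1.40 against -1.38 in WT and -1.79 against -1.44 in *Nlrp3*-/- mice. A match describes the letters alone.
Sod1: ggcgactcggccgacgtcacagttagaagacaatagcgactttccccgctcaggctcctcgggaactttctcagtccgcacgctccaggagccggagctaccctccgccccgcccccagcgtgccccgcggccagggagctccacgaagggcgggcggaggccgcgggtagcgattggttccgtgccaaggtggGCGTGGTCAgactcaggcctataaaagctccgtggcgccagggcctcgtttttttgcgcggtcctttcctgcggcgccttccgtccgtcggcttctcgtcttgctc
Prdx1: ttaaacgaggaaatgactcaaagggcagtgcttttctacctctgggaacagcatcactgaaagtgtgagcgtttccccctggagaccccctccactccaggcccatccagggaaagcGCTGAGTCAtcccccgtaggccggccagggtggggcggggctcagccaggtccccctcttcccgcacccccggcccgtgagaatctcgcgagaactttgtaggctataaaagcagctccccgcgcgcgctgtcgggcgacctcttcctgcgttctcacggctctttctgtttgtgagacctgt
Txn1: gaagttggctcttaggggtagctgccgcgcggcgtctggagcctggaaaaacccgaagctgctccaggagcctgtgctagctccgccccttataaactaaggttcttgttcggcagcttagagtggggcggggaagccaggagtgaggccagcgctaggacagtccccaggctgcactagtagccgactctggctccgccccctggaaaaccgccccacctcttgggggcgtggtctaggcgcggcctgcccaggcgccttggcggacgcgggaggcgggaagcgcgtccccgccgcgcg

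**Figure D1:**
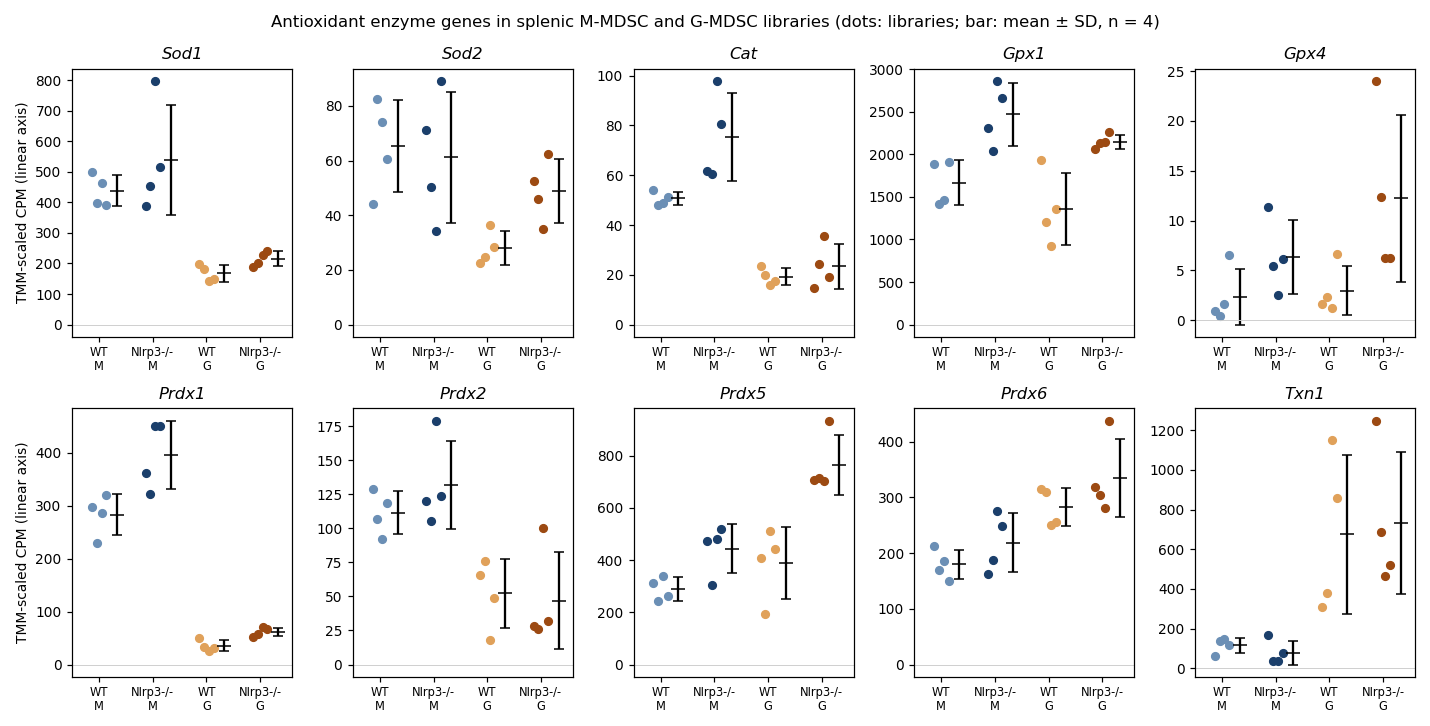
TMM-scaled CPM of the 10 antioxidant enzyme genes on linear axes, 1 dot for each of 4 libraries in each of the 4 groups, with the mean ± SD beside the dots. *Prdx1* lay between 26.4 and 70.2 CPM in the 8 G-MDSC libraries and between 229 and 451 CPM in the 8 M-MDSC libraries, while *Txn1* lay between 310 and 1248 CPM in G-MDSCs and between 37.5 and 166 CPM in M-MDSCs.

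WT and *Nlrp3*-/- libraries were compared within each subset. A gene was called when edgeR's quasi-likelihood test gave a Benjamini-Hochberg FDR under 0.05 over all genes tested and a fold change above 1.5. In M-MDSCs 2 of 10 members were called, *Cat* and *Gpx1*, both higher in *Nlrp3*-/- mice, where 3.51% of 9986 genes tested were called higher (351 genes) and 7.1% lower (709), a split that became 684 and 569 with scaling by library size only. In G-MDSCs 4 of 10 were called, *Sod2*, *Gpx4*, *Prdx1* and *Prdx5*, again all higher, where 4.7% of 9273 genes were called higher (436) and 11.7% lower (1086), or 793 and 854 with library size only. No member was called lower in either subset, and 5 members in each subset had an unadjusted quasi-likelihood p under 0.05. The largest of these p in M-MDSCs, 0.0355 for *Gpx4*, ranked 2608 of 9986 genes. In G-MDSCs the largest, 0.0102 for *Gpx1*, ranked 1757 of 9273 genes, so such p-values were common among all genes. The median log2 fold change of the members was 0.41 in M-MDSCs, where that of all genes tested was 0.07, and 0.43 in G-MDSCs, where that of all genes was 0.03. All 4 *Nlrp3*-/- libraries lay above all 4 WT libraries for *Cat*, *Gpx1* and *Prdx1* in M-MDSCs, against 7.59% of genes with that order and 11.7% with the opposite one, and for *Gpx1*, *Prdx1* and *Prdx5* in G-MDSCs, against 12% and 12.3%.

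These calls lay close to the thresholds. Without any 1 of the 8 libraries 0 to 2 members were called in M-MDSCs and 1 to 3 in G-MDSCs, and without the WT M-MDSC library of replicate 2 the count in M-MDSCs was 0. Marker genes of other cells also moved with genotype. The summed level of 8 red pulp macrophage markers was 74.5 to 110 CPM in WT and 131 to 276 CPM in *Nlrp3*-/- M-MDSCs. In G-MDSCs it was 392 to 718 CPM in WT and 891 to 1129 CPM in *Nlrp3*-/- mice. *Slc40a1* was the largest part there, at 299 to 501 and 525 to 683 CPM, but in M-MDSCs it reached only 7.67 and 27.8 CPM. *Vcam1* in G-MDSCs was at 24.0 to 52.8 and 105 to 170 CPM. Of the red pulp macrophage markers 6 of 8 were called higher and 1 lower in M-MDSCs, and 6 of 7 tested higher and 0 lower in G-MDSCs. *Hpgd* ran the other way in M-MDSCs, at 19.1 to 40.2 CPM in WT and 0.257 to 3.07 CPM in *Nlrp3*-/- mice. In the G-MDSC sort the summed level of the 6 monocyte markers was 691 to 978 CPM in WT and 1022 to 1233 CPM in *Nlrp3*-/- mice, with 1 gene called higher and 1 lower. *Csf1r* was the largest part of this sum, at 340 to 692 and 700 to 909 CPM, and *Ly6c2* was next, at 181 to 274 and 220 to 287 CPM. *Ccr2* and *Cx3cr1* did not pass 14.7 CPM in either genotype. The medians of *Klf4* (51.4 and 30.6 CPM) and *Ly86* (5.88 and 1.83 CPM) were lower in *Nlrp3*-/- mice. Proliferation markers summed to 154 to 522 CPM in WT and 61.3 to 136 CPM in *Nlrp3*-/- M-MDSCs, with 2 of 6 called lower, and to 126 to 429 and 49.9 to 182 CPM in G-MDSCs, with 2 of 5 tested called lower. In G-MDSCs dendritic cell markers summed to 221 to 381 CPM in WT and 404 to 692 CPM in *Nlrp3*-/- mice (1 gene tested, called higher). Nearly all of these sums was *H2-Ab1*, at 220 to 379 and 403 to 689 CPM, and no other marker of that list passed 2.72 CPM. Eosinophil and basophil markers summed to 25.7 to 51.8 CPM in WT and 57.8 to 65.3 CPM in *Nlrp3*-/- G-MDSCs (0 of 2 called). The part of all these other cells in the members' differences was not tested.

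**Figure D2:**
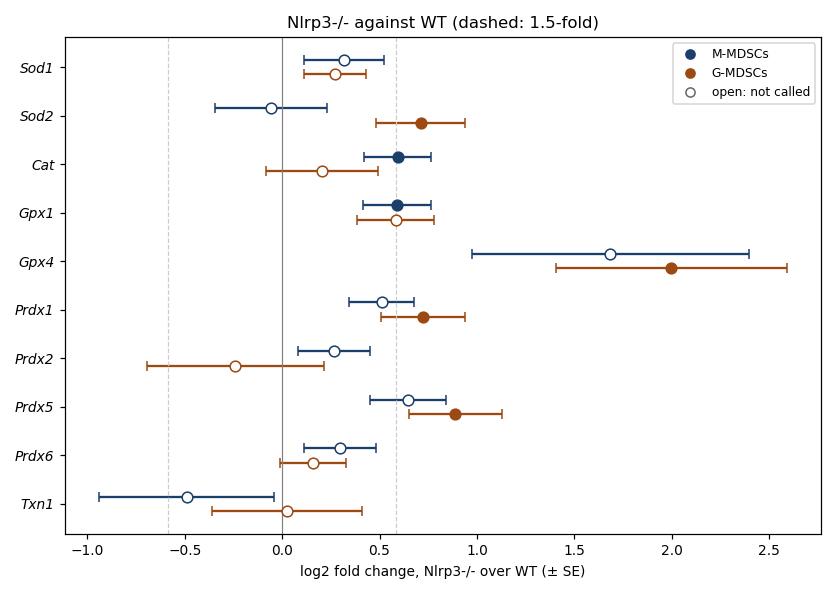
Log2 fold change of *Nlrp3*-/- over WT with its standard error for the 10 genes in M-MDSCs and G-MDSCs, filled where called and with dashed lines at 1.5-fold. In both subsets *Gpx4* lies farthest to the right, at 1.69 and 2.00, and *Prdx1*, *Prdx5* and *Gpx1* lie between 0.51 and 0.89.

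The subsets themselves were then compared within each genotype. In WT mice 2 of the 9 members tested were higher in G-MDSCs, *Prdx6* and *Txn1*, and 5 were lower, *Sod1*, *Sod2*, *Cat*, *Prdx1* and *Prdx2*, where 26.3% and 27.1% of 9739 genes were called higher and lower (2557 and 2636 genes, or 1166 and 5061 with library size only). In *Nlrp3*-/- mice *Prdx5* and *Txn1* were called higher and *Sod1*, *Cat*, *Prdx1* and *Prdx2* lower of 10 tested, where 23.7% and 27.4% of 10071 genes were called (2383 and 2758 genes, or 1146 and 5034 with library size only). Libraries did not overlap for 2 higher and 5 lower members in WT mice, against 25.5% and 26.4% of genes, and for 3 higher and 4 lower members in *Nlrp3*-/- mice, against 26.2% and 24%. The median log2 fold change of the members was -1.09 in WT mice and -0.39 in *Nlrp3*-/- mice, where those of all genes were -0.05 and -0.12. These comparisons share their libraries with the genotype comparisons. Markers of other cells also differed between subsets: in WT mice B cell markers were called higher in G-MDSCs for 5 of 5 genes (summed 92.3 to 129 CPM in M-MDSCs and 233 to 314 CPM in G-MDSCs) and red pulp macrophage markers for 5 of 8, with 1 lower, whereas primary granule markers were called lower for 4 of 5 (76.2 to 305 and 3.15 to 11.02 CPM). In *Nlrp3*-/- mice these counts were 4 of 5 higher, 6 of 7 higher and 4 of 5 lower, and the part of such cells in the members' differences was not tested. Without the WT M-MDSC library of replicate 2 the WT count of members was 6, with *Prdx6* lost. With the mouse as a replicate block the counts of called members stayed 2 higher and 5 lower in WT, and 2 higher and 4 lower in *Nlrp3*-/- mice.

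**Figure D3:**
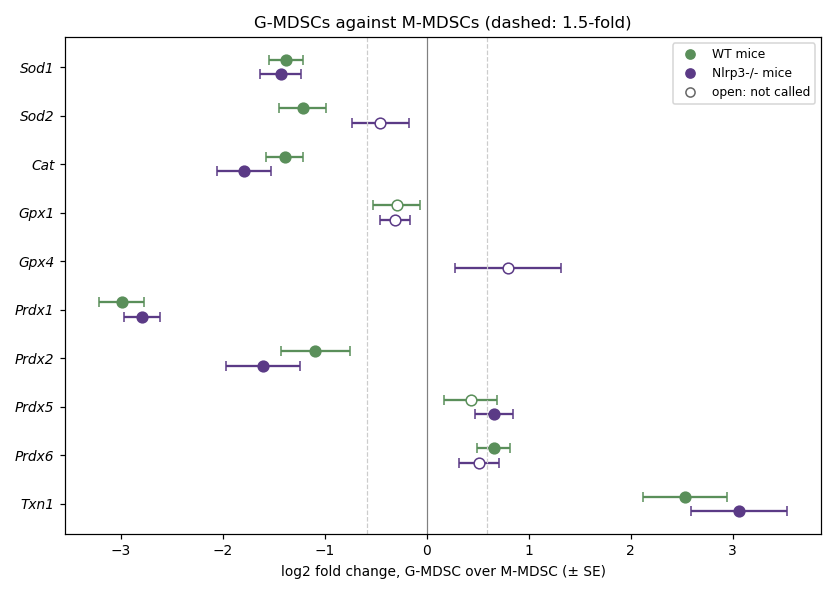
Log2 fold change of G-MDSCs over M-MDSCs with its standard error for the members tested in WT and in *Nlrp3*-/- mice, filled where called and with dashed lines at 1.5-fold. *Prdx1* lies at -2.99 and -2.79 and *Txn1* at 2.53 and 3.06, and *Gpx4* has no WT value because it did not pass the filter on low counts there.

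*Sod1*, the copper-zinc dismutase of the cytosol (chr16:90220754-90226329, + strand, GRCm38), differed between the subsets in both genotypes. It stood at 499, 398, 462 and 392 CPM in WT M-MDSCs, at 389, 454, 798 and 516 CPM in *Nlrp3*-/- M-MDSCs, at 199, 183, 142 and 149 CPM in WT G-MDSCs and at 188, 202, 229 and 241 CPM in *Nlrp3*-/- G-MDSCs. All G-MDSC libraries lay below all M-MDSC libraries, 2.60-fold lower in WT (log2 fold change -1.38 ± 0.17 SE, FDR = 2.43e-05) and 2.71-fold lower in *Nlrp3*-/- mice (-1.44 ± 0.20, FDR = 3.96e-05). Between genotypes the libraries overlapped in both subsets, at 0.32 ± 0.21 in M-MDSCs (95% interval -0.13 to 0.77) and 0.27 ± 0.16 in G-MDSCs (-0.07 to 0.61). With offsets for GC content and length the G-MDSC value was -0.02. The *Nlrp3*-/- M-MDSC library of replicate 3 was the highest of all 16. At the 3′ end of the longest *Sod1* transcript 228 bases match the processed pseudogene *Gm8566* at 97.8% identity. *Gm8566* has no row among the counted symbols, and its part in the counts of *Sod1* was not tested.

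*Sod2*, the manganese dismutase that removes superoxide in mitochondria (chr17:13006846-13040063, + strand), stood at 44.0, 82.4, 74.2 and 60.6 CPM in WT M-MDSCs, at 71.2, 50.3, 34.2 and 89.2 CPM in *Nlrp3*-/- M-MDSCs, at 22.4, 24.7, 36.4 and 28.4 CPM in WT G-MDSCs and at 52.4, 45.9, 34.8 and 62.4 CPM in *Nlrp3*-/- G-MDSCs. In G-MDSCs it rose 1.64-fold without *Nlrp3* (0.71 ± 0.23, FDR = 0.0457), with the lowest *Nlrp3*-/- library below the highest WT library, and an exact two-sided permutation test of the 4 against 4 libraries gave p = 0.0571. The call was kept without the replicate 3 library of either genotype and lost without each of the other 6 (FDR = 0.084 to 0.141) and with the replicate block (FDR = 0.113). Between genotypes, here and below, that block pairs mice that share only a number. A call kept or lost under it is therefore neither stronger nor weaker. In M-MDSCs the value of *Sod2* was -0.06 ± 0.29 (95% interval -0.68 to 0.57), and the sign turned with scaling by library size alone (0.05) and with the GC content and length offsets (0.35). The subset difference was 2.33-fold in WT mice (-1.22 ± 0.23, FDR = 0.000712) and -0.46 ± 0.28 in *Nlrp3*-/- mice (95% interval -1.06 to 0.15, FDR = 0.188), where it was called without the M-MDSC library of replicate 3 (-0.66, FDR = 0.0344) and with library size alone (-1.19, FDR = 0.0023). Stretches of the 3′ end of its longest transcript are shared at 95.3% to 96.3% identity with 4 other genes, so some of its reads may be split between them.

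Whether the genotype effect differed between the subsets was tested as an interaction over all 16 libraries, and 0 of 10 members passed, where 0.028% of 10696 genes did. DESeq2 also called 0. This fit had no term for the mouse, so its standard errors and intervals treat both libraries of a mouse as independent. With the mouse as a block 0 members passed as well. *Sod2* was the only member with an unadjusted p under 0.05, at rank 299 of the 10696 genes by p. Its effect was larger in G-MDSCs by 0.89 ± 0.38 on the log2 scale (95% interval 0.09 to 1.69, FDR = 0.992). The other 9 members differed between subsets by -0.39 to 0.66, each with a 95% interval that includes 0.

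*Cat* encodes catalase, the peroxisomal enzyme that splits hydrogen peroxide (chr2:103453849-103485160, - strand). It stood at 54.2, 48.1, 48.9 and 51.4 CPM in WT M-MDSCs and at 61.9, 60.6, 98.0 and 80.7 CPM in *Nlrp3*-/- M-MDSCs. Every *Nlrp3*-/- library lay above every WT library, a 1.51-fold rise (0.59 ± 0.17, FDR = 0.0469; exact two-sided permutation p = 0.0286, the smallest that 4 against 4 allows). The rise was called in 1 of the 8 fits that leave out a library, that without the *Nlrp3*-/- library of replicate 1, in 4 of 13 other settings, and not with the replicate block (FDR = 0.12). In G-MDSCs it stood at 23.7, 19.97, 15.8 and 17.5 CPM in WT and at 14.6, 24.4, 35.4 and 19.1 CPM in *Nlrp3*-/- mice, overlapping at 0.20 ± 0.29 (95% interval -0.41 to 0.82), and without the *Nlrp3*-/- library of replicate 3 the value was -0.07. *Cat* was 2.63-fold lower in G-MDSCs than in M-MDSCs of WT mice (-1.40 ± 0.18, FDR = 4.5e-05) and 3.47-fold lower in *Nlrp3*-/- mice (-1.79 ± 0.26, FDR = 5.82e-05), with no overlap of libraries.

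*Gpx1*, the selenium-dependent glutathione peroxidase of cytosol and mitochondria (chr9:108338903-108340343, + strand), was higher without *Nlrp3* in M-MDSCs. It stood at 1888, 1421, 1462 and 1904 CPM in WT M-MDSCs, at 2310, 2035, 2863 and 2663 CPM in *Nlrp3*-/- M-MDSCs, at 1931, 1200, 926 and 1359 CPM in WT G-MDSCs and at 2058, 2130, 2147 and 2259 CPM in *Nlrp3*-/- G-MDSCs. In both subsets all 4 *Nlrp3*-/- libraries lay above all 4 WT libraries, and the *Nlrp3*-/- G-MDSC libraries were the closest together, with a range from 2058 to 2259 CPM. The rise in M-MDSCs was 1.51-fold (0.59 ± 0.17, FDR = 0.0486). In G-MDSCs the value was of like size, 0.58 ± 0.20, and missed the thresholds (FDR = 0.054). It passed them without the WT library of replicate 1 (0.79, FDR = 0.00772) and in 6 of 13 other settings, among them DESeq2 (0.60, FDR = 0.021). The M-MDSC call was lost in each of the 8 fits that leave out a library and in 9 of 13 other settings, and with GC content and length offsets the values were 0.26 in M-MDSCs and 0.18 in G-MDSCs. Between subsets the libraries overlapped, at -0.30 ± 0.23 in WT (95% interval -0.80 to 0.21) and -0.31 ± 0.15 in *Nlrp3*-/- mice (-0.64 to 0.01). With library size alone *Gpx1* was called lower in G-MDSCs of both, at -1.05 (FDR = 0.00161) and -1.03 (FDR = 2.27e-05), or -0.26 and -0.20 relative to the median of all genes under that scaling. After TMM scaling genotype took 57.9% of the variance of its log2 CPM over the 16 libraries and subset 9.79%, whereas for *Prdx1* these shares were 4.93% and 92.3%.

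*Gpx4* reduces lipid hydroperoxides in membranes and restrains ferroptosis (chr10:80047166-80056439, + strand). Only 3 to 104 counts per library were assigned to it, at 0.929, 0.422, 1.61 and 6.51 CPM in WT M-MDSCs, at 11.4, 5.46, 2.51 and 6.17 CPM in *Nlrp3*-/- M-MDSCs, at 1.67, 2.37, 1.21 and 6.62 CPM in WT G-MDSCs and at 24.0, 12.3, 6.22 and 6.29 CPM in *Nlrp3*-/- G-MDSCs. In each WT group the replicate 4 library was the highest and reached into the range of the *Nlrp3*-/- libraries. The value was 2.00 ± 0.59 in G-MDSCs (FDR = 0.0316, called) and 1.69 ± 0.71 in M-MDSCs (FDR = 0.136). Without the WT M-MDSC library of replicate 4 the M-MDSC value was 2.76 with an FDR of 0.0366, and in G-MDSCs the call was kept in 3 of 8 fits without a library, those without WT replicate 4 or *Nlrp3*-/- replicate 3 or 4. The last 300 bases of its longest transcript are 99.7% identical to those of the copy *Gpx4-ps2*, which has no row among the counted symbols, so these counts are uncertain.

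*Prdx1*, a cytosolic peroxiredoxin that thioredoxin keeps reduced (chr4:116685544-116700822, + strand), showed the widest gap between subsets of the members that were lower in G-MDSCs. It stood at 298, 229, 286 and 320 CPM in WT M-MDSCs, at 362, 323, 451 and 450 CPM in *Nlrp3*-/- M-MDSCs, at 50.4, 33.5, 26.4 and 31.5 CPM in WT G-MDSCs and at 52.9, 58.0, 70.2 and 66.6 CPM in *Nlrp3*-/- G-MDSCs. The 4 groups did not overlap and ran from WT G-MDSCs through *Nlrp3*-/- G-MDSCs and WT M-MDSCs to *Nlrp3*-/- M-MDSCs. G-MDSCs were 7.98-fold lower than M-MDSCs in WT (-2.99 ± 0.22, FDR = 3.97e-07) and 6.94-fold lower in *Nlrp3*-/- mice (-2.79 ± 0.18, FDR = 1.39e-08). Loss of *Nlrp3* went with a 1.65-fold rise in G-MDSCs (0.72 ± 0.21, FDR = 0.0323), and in M-MDSCs the value was 0.51 ± 0.17 (FDR = 0.0666), below the thresholds. The G-MDSC call was kept in 2 of 8 fits that leave out a library, those without replicate 1 of WT or of *Nlrp3*-/- mice, and was lost with the replicate block (FDR = 0.0859).

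*Prdx2* is a close relative of *Prdx1* and an abundant protein of red blood cells (chr8:84969587-84974834, + strand). It stood at 129, 107, 92.4 and 119 CPM in WT M-MDSCs, at 120, 105, 179 and 124 CPM in *Nlrp3*-/- M-MDSCs, at 66.1, 76.2, 17.9 and 49.0 CPM in WT G-MDSCs and at 28.6, 25.9, 100 and 32.3 CPM in *Nlrp3*-/- G-MDSCs. The genotypes overlapped in both subsets, at 0.27 ± 0.18 in M-MDSCs (95% interval -0.14 to 0.67) and -0.24 ± 0.46 in G-MDSCs (-1.21 to 0.74). G-MDSCs were 2.14-fold lower than M-MDSCs in WT (-1.09 ± 0.34, FDR = 0.0148) and 3.05-fold lower in *Nlrp3*-/- mice (-1.61 ± 0.37, FDR = 0.00196).

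The spread of *Prdx2* among G-MDSC libraries went with erythroid markers and also with proliferation markers. The summed level of 12 erythroid markers in WT G-MDSCs was 195, 445, 27.1 and 250 CPM in replicates 1 to 4, and the replicate 3 library that was lowest in these markers was also lowest in *Prdx2*. In *Nlrp3*-/- G-MDSCs it was 50.8, 26.4, 272 and 61.6 CPM, with *Prdx2* highest in the same replicate 3 library and lowest in the same replicate 2 library. Proliferation markers summed to 291.5, 428.8, 125.5 and 329.6 CPM in WT and 79.0, 49.9, 181.9 and 76.3 CPM in *Nlrp3*-/- G-MDSCs, in replicate order. In both groups they were highest and lowest in the same libraries as *Prdx2*. In M-MDSCs the erythroid sum was 49.98, 183, 18.7 and 64.1 CPM in WT and 26.1, 22.4, 130 and 27.1 CPM in *Nlrp3*-/- mice. The WT library highest in it, replicate 2, held less *Prdx2* (107 CPM) than replicates 1 and 4 (129 and 119 CPM). Of the 12 markers the 5 hemoglobin genes were listed at 0 in all groups. *Slc4a1* reached 261 CPM, and *Alas2*, the heme synthesis enzyme of red cell precursors, reached 103 CPM. The part of such cells, or of proliferating cells, in the level of *Prdx2* was not tested. The library highest in erythroid markers in each group, replicate 2 in WT and replicate 3 in *Nlrp3*-/- mice for both subsets, was then left out. This choice was made after the data were seen. The same libraries were the highest of their groups in proliferation markers. In WT and *Nlrp3*-/- mice these stood at 522 and 136 CPM in M-MDSCs and at 429 and 182 CPM in G-MDSCs. Both kinds of marker were therefore removed at once. Without these libraries the subset difference of *Prdx2* was still called in both genotypes (-1.43 and -2.13). With GC content and length offsets the WT call of *Prdx2* was lost (-0.84, FDR = 0.0598). With groups of 3 in place of 4, the genotype values in G-MDSCs were 0.80 for *Sod2*, 2.15 for *Gpx4*, 0.64 for *Prdx1* and 0.70 for *Prdx5*, of which *Prdx5* alone was called, and those in M-MDSCs were 0.40 for *Cat* and 0.42 for *Gpx1*, neither called.

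**Figure D4:**
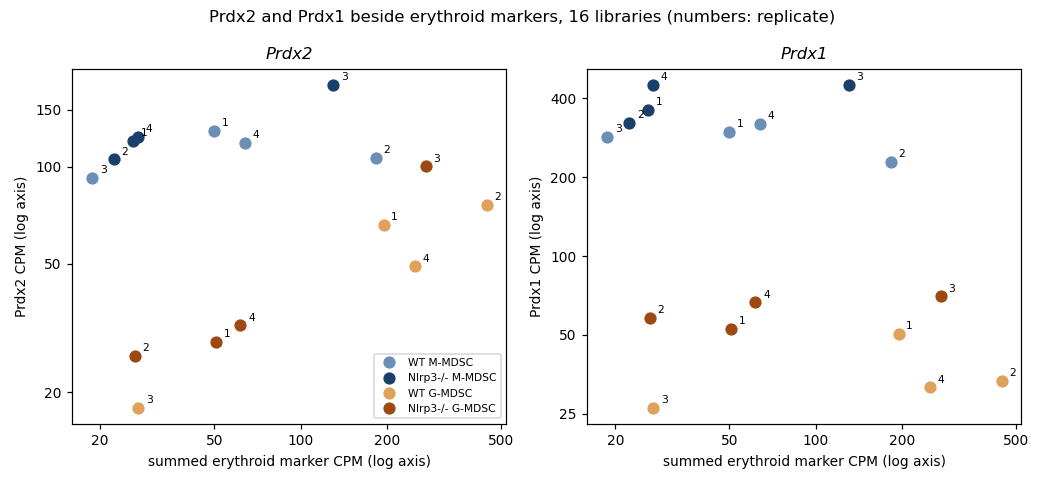
CPM of *Prdx2* and of *Prdx1* against the summed CPM of erythroid markers in each of the 16 libraries, both axes logarithmic, colored by group and numbered by replicate. Among the 8 G-MDSC libraries the 4 with 195 CPM or more of these markers hold 49.0 to 100 CPM of *Prdx2* and the other 4 hold 17.9 to 32.3 CPM.

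*Prdx5*, a peroxiredoxin of mitochondria, peroxisomes and cytosol (chr19:6906697-6910106, - strand), was higher without *Nlrp3* in G-MDSCs. It stood at 314, 243, 339 and 262 CPM in WT M-MDSCs, at 474, 304, 481 and 518 CPM in *Nlrp3*-/- M-MDSCs, at 409, 192, 512 and 444 CPM in WT G-MDSCs and at 706, 714, 702 and 934 CPM in *Nlrp3*-/- G-MDSCs. The *Nlrp3*-/- G-MDSC libraries all lay above the WT ones, a 1.85-fold rise (0.89 ± 0.24, FDR = 0.0205; exact two-sided permutation p = 0.0286) that was called in 7 of 8 fits without a library and with the replicate block. The exception was the fit without the *Nlrp3*-/- library of replicate 4 (FDR = 0.0683), and with GC content and length offsets the value was 0.49 (FDR = 0.191). In M-MDSCs the value was 0.65 ± 0.20 (FDR = 0.0523), with the *Nlrp3*-/- library of replicate 2 inside the WT range, and without that library the difference was called (0.74, FDR = 0.0227). *Prdx5* was 1.58-fold higher in G-MDSCs than in M-MDSCs of *Nlrp3*-/- mice (0.66 ± 0.19, FDR = 0.0085; -0.06 with scaling by library size alone), and the value was 0.43 ± 0.26 in WT mice (95% interval -0.13 to 0.99). The first of these lost its call without M-MDSC replicate 2 or G-MDSC replicate 4 (0.51 and 0.58), and the second gained one without G-MDSC replicate 2 (0.67) but was -0.31 with library size alone.

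*Prdx6* uses glutathione rather than thioredoxin and also acts as a phospholipase (chr1:161240112-161251219, - strand). It stood at 212, 170, 187 and 150 CPM in WT M-MDSCs, at 162, 187, 276 and 248 CPM in *Nlrp3*-/- M-MDSCs, at 316, 309, 250 and 256 CPM in WT G-MDSCs and at 319, 304, 281 and 438 CPM in *Nlrp3*-/- G-MDSCs. In both genotypes all G-MDSC libraries lay above all M-MDSC libraries, 1.57-fold in WT (0.65 ± 0.16, FDR = 0.00415, called) and 1.42-fold in *Nlrp3*-/- mice (0.51 ± 0.20, FDR = 0.0409, under the fold threshold), but library size alone turned the sign, to -0.10 and -0.21. The WT call was lost without M-MDSC replicate 2 or 4 (0.56 and 0.52), and *Nlrp3*-/- libraries gave one without M-MDSC replicate 3 or G-MDSC replicate 2 or 3 (0.59 to 0.62). Library size alone moved the median of all genes to -0.79 in WT and -0.83 in *Nlrp3*-/- mice. Relative to those medians *Prdx6* stood 0.69 and 0.62 higher, and *Prdx5* 0.48 and 0.77 higher. Genotype values were 0.30 ± 0.19 in M-MDSCs (95% interval -0.11 to 0.70) and 0.16 ± 0.17 in G-MDSCs (-0.20 to 0.52), with overlapping libraries.

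*Txn1* encodes cytosolic thioredoxin, the electron donor of most peroxiredoxins (chr4:57943373-57956411, - strand), and ran opposite to *Prdx1* between the subsets. It stood at 61.7, 138, 149 and 117 CPM in WT M-MDSCs, at 166, 37.5, 39.1 and 75.8 CPM in *Nlrp3*-/- M-MDSCs, at 310, 382, 1151 and 856 CPM in WT G-MDSCs and at 1248, 687, 466 and 522 CPM in *Nlrp3*-/- G-MDSCs. Every G-MDSC library lay above every M-MDSC library, 5.79-fold in WT (2.53 ± 0.41, FDR = 0.00025) and 8.35-fold in *Nlrp3*-/- mice (3.06 ± 0.47, FDR = 8.52e-05), and both were called in all 21 alternative fits run for each. Genotype values were -0.49 ± 0.45 in M-MDSCs (95% interval -1.47 to 0.49) and 0.03 ± 0.39 in G-MDSCs (-0.80 to 0.85). The *Nlrp3*-/- library of replicate 1 was the highest of its genotype in both subsets, and without it *Txn1* was called lower in *Nlrp3*-/- M-MDSCs (-1.21, FDR = 0.0212). The spread within a group was wide, with a coefficient of variation of 33.3% to 75.8%.

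Because both subsets came from the same mice, the deviation of each library from its group mean was set beside that of the other subset of the mouse, over 8 mice and as a description. Pearson's r ran from 0.24 for *Prdx6* to 0.865 for *Prdx2* (Spearman's rho 0 and 0.905), with *Sod2* at 0.814 (0.667), *Gpx4* at 0.738 (0.452), *Txn1* at 0.655 (0.619) and *Cat* at 0.654 (0.381). Mouse KO3 was highest in *Prdx2* and lowest in *Sod2* among the *Nlrp3*-/- mice in both subsets, and mouse KO1 was highest in *Txn1*. Without the 2 mice farthest out in M-MDSCs r was 0.696 for *Prdx2*, 0.476 for *Sod2*, 0.327 for *Txn1*, 0.721 for *Gpx4* and 0.691 for *Prdx6*, and ran from 0.126 for *Prdx5* to 0.733 for *Gpx1*. Both libraries of a mouse come from its spleen, and whether they share a sort was not stated. The part of tissue and sort in these values was not tested.

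**Figure D5:**
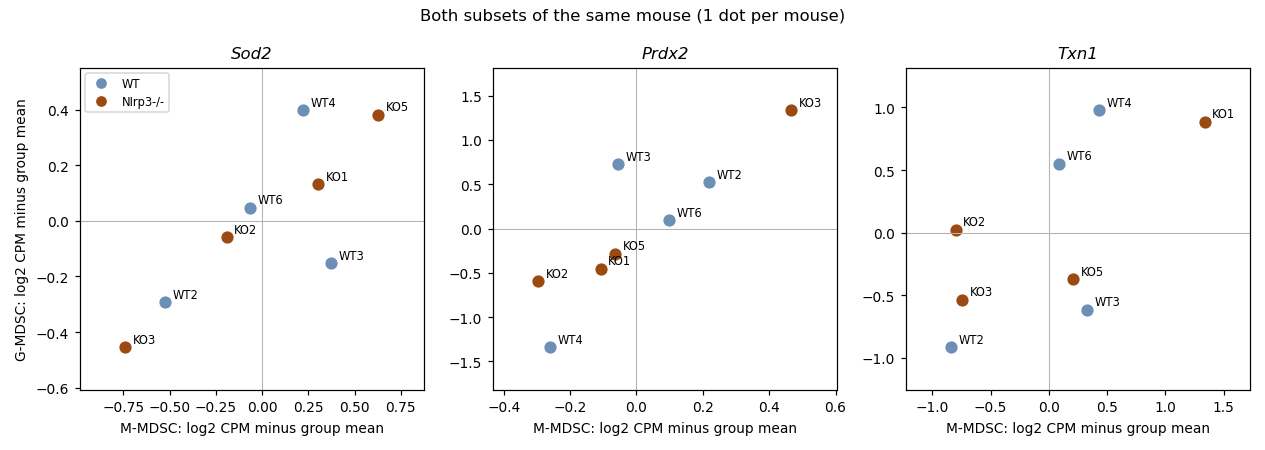
Log2 CPM minus the group mean in the M-MDSC (horizontal) and G-MDSC (vertical) library of each of the 8 mice for *Sod2*, *Prdx2* and *Txn1*, colored by genotype. In the panel of *Prdx2* the mice run from low in both subsets, with KO2 and WT4, to high in both, with KO3.

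Among the members, deviations from the group means over the 16 libraries went together most for *Gpx1* and *Prdx1* (r = 0.893) and for *Sod1* and *Prdx6* (r = 0.818), and were most opposite for *Sod1* and *Txn1* (r = -0.735). Over all 16 libraries, with subset included, the genes most like *Prdx1* in log2 CPM were *Nme2*, *Lgals3bp* and *Tmem109* (r = 0.988 to 0.994), those most like *Sod1* were *Eif3h*, *Rpsa* and *Dpagt1* (0.984 to 0.99), and those most like *Cat* were *Pbx3*, *Ehmt2* and *Trappc6a* (0.975 to 0.982). For *Txn1* they were *Khdc3*, *Hk3* and *Rbm47* (0.979 to 0.98), for *Prdx5* *Fcer1g*, *Cox8a* and *Csk* (0.942 to 0.964), for *Prdx6* *Ip6k2*, *Fam209* and *Nrbp1* (0.942 to 0.958) and for *Prdx2* *Steap3*, *Galnt10* and *Ncoa7* (0.931 to 0.974). *Sod2* was most like *Taf5l*, *Eef1a1* and *Glud1* (0.926 to 0.937), *Gpx1* like *Axl*, *Slc25a51* and *Nosip* (0.903 to 0.917) and *Gpx4* like *Sla*, *Hdac5* and *Adamdec1* (0.812 to 0.845). These points share their libraries, depth and subset.

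The other genes of the antioxidant system, a list of 46 that supply, repair or control these enzymes, were tested in the same fits. Between genotypes 2 of 39 tested were called higher and 6 lower in M-MDSCs, where 3.51% and 7.1% of all genes were, and 2 of 38 higher and 7 lower in G-MDSCs, where 4.7% and 11.7% were. Their median log2 fold changes, 0.10 and -0.06, lay near those of all genes, 0.07 and 0.03. *Nfe2l2*, the transcription factor that acts on the antioxidant response element, fell in M-MDSCs from 193 ± 42.3 to 104 ± 14.1 CPM (SD, n = 4 in each group; log2 fold change -0.85 ± 0.19 SE, FDR = 0.0177) and in G-MDSCs from 516 ± 14.2 to 277 ± 12.97 CPM (-0.98 ± 0.13, FDR = 0.00028). *Gclc*, the catalytic subunit of the enzyme that limits glutathione synthesis, fell in both (-1.33 ± 0.31, FDR = 0.0194, and -1.74 ± 0.36, FDR = 0.00441), and *Txnrd1*, the reductase that recharges thioredoxin, did as well (-1.49 ± 0.27, FDR = 0.00697, and -1.08 ± 0.27, FDR = 0.014). The libraries of the genotypes did not overlap for these 3 genes in either subset. In M-MDSCs the call of *Nfe2l2* was lost without WT replicate 2 or 4 or *Nlrp3*-/- replicate 4 (FDR = 0.0505 to 0.0561), and that of *Gclc* without WT replicate 2 or 4 (FDR = 0.0589 and 0.0598). *Gpx3*, the secreted glutathione peroxidase, fell in M-MDSCs (-2.33 ± 0.33, FDR = 0.00298), and *Sesn2*, a stress-induced sestrin, fell in G-MDSCs (-3.53 ± 0.48, FDR = 0.000269). The genes called higher were *Pex14*, a docking protein of peroxisomal import (1.09 ± 0.23, FDR = 0.0129, but 0.0625 without *Nlrp3*-/- replicate 4), and *Ccs*, the copper chaperone of *Sod1* (0.62 ± 0.18, FDR = 0.0441), in M-MDSCs, and the methionine sulfoxide reductases *Msra* (0.63 ± 0.15, FDR = 0.0116) and *Msrb1* (0.78 ± 0.19, FDR = 0.0106) in G-MDSCs. With GC content and length offsets *Msrb1* was at 0.44 (FDR = 0.135) and *Pex14* at 0.76 (FDR = 0.0537), and neither was called.

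Between subsets 13 of 40 list genes tested in WT mice were higher in G-MDSCs and 11 lower, where 26.3% and 27.1% of all genes were, and in *Nlrp3*-/- mice 11 of 39 were higher and 11 lower, where 23.7% and 27.4% were, so the list's shares lay near those of all genes. All 3 methionine sulfoxide reductases tested were higher in G-MDSCs of both genotypes, *Msra* by 2.84 ± 0.23 in WT and 3.29 ± 0.22 in *Nlrp3*-/- mice. *Slc7a11*, the cystine importer for glutathione synthesis, was higher by 4.22 ± 0.24 and 4.31 ± 0.28, and *Glrx*, a glutaredoxin, by 2.27 ± 0.20 and 2.17 ± 0.19. *Prdx4*, the peroxiredoxin of the endoplasmic reticulum, was lower, at -2.88 ± 0.29 and -2.17 ± 0.29, as *Prdx1* and *Prdx2* were. In the interaction test 0 of 41 list genes passed, and 1 had an unadjusted p under 0.05.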

How the data were processed

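Messenger RNA of 16 libraries, M-MDSCs and G-MDSCs of 8 mice, was measured by QuantSeq 3′ sequencing. With hisat2 2.1.0 the authors aligned reads to the mm10 build, then counted them by strand with htseq-count and deposited raw counts per gene symbol for each library. The submitters' notes also name edgeR 3.14.0. The counts were used as deposited. Libraries held 2295967 to 6079866 counts, and among 24 pairs of libraries within a group none were identical (chi-square per degree of freedom 6.77 to 50.6). Groups and mice came from the labels. The members and gene lists were chosen with earlier results of these data known.

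Comparisons were fitted in R 4.3.3 with edgeR 4.0.16 (filterByExpr, TMM within the comparison, glmQLFit, glmQLFTest) over all genes, with Benjamini-Hochberg adjustment (FDR). A standard error is the log2 fold change divided by the square root of F. Printed CPM were scaled by TMM over 16 libraries, log2 CPM used a prior count of 2, and a fold change can therefore differ slightly from the ratio of mean CPM. For single genes an exact permutation test, two-sided, was run on CPM. The steps were tested on simulated data. Alternatives were DESeq2 1.42.0, edgeR's exact test, other scalings and filters, a model of all libraries, no fold change minimum, a replicate block, offsets for GC content and length (splines with 4 degrees of freedom each), and each library left out in turn.

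Within a genotype a number in the labels marks 1 mouse, so M-MDSC and G-MDSC libraries are paired by it, and their deviations from the group means correlated at 0.00717 to 0.447. WT and Nlrp3-/- libraries with a number in common are from different mice. All 10 members are named, and of the pathway list the genes called, those with the smallest p per comparison first. Gene coordinates and 3′ copies come from GENCODE M21 of GRCm38, where 23376 symbols matched directly and 678 by an older symbol, and promoters from RefSeq tables of GRCm38.p6. Python 3.11 and matplotlib 3.10.9 served for the plots.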

Additional observations from a re-analysis of the deposited data

Results flagged for a closer look

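In 3 of 44 sets of 4 libraries, formed by the 10 members and *Nlrp3* in each group, 1 library stood apart from the other 3 by Dixon's ratio on log2 CPM (above 0.829). Chance flags about 1 in 20 such sets. *Prdx2* was at 100.1 CPM in the *Nlrp3*-/- G-MDSC library of replicate 3, where the next highest held 32.3 CPM (ratio 0.839). This library also had the highest summed erythroid and proliferation markers of its group. *Prdx5* was at 304.5 CPM in the *Nlrp3*-/- M-MDSC library of replicate 2, below the other 3 at 474 to 518 CPM (ratio 0.833). *Prdx5* was at 934.5 CPM in the *Nlrp3*-/- G-MDSC library of replicate 4, above the other 3 at 702 to 714 CPM (ratio 0.941).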

How the results depend on the processing

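Between subsets *Sod1*, *Cat*, *Prdx1* and *Txn1* were called in both genotypes under every alternative run. Between genotypes the count of 2 members in M-MDSCs, *Cat* and *Gpx1*, became 0 with DESeq2 size factors, without a filter, in a model of all 16 libraries, with the replicate block and with the replicate block plus GC content and length offsets, 1 with at least 10 counts in every library and with DESeq2 (*Prdx5* in place of both) and with GC content and length offsets (*Prdx1* in place of both), and 4 with library size only. The count of 4 in G-MDSCs became 1 with the replicate block (*Prdx5*) and with the block plus the offsets (*Sod2*), and 2 with the offsets alone (*Sod2* and *Prdx1*). The same-numbered WT and *Nlrp3*-/- mice share only a number (deviations correlated at -0.488 to 0.0251), so a call lost under that replicate block is not a weaker effect, and a call kept is not a stronger one. Leaving out each library in turn gave 0 to 2 in M-MDSCs (fewer than 2 without each library other than the *Nlrp3*-/- one of replicate 1) and 1 to 3 in G-MDSCs (1 without WT replicate 2, *Nlrp3*-/- replicate 2 or 4, and 2 without WT replicate 3 or 4 or *Nlrp3*-/- replicate 1), 6 to 8 between subsets in WT mice, 5 to 8 in *Nlrp3*-/- mice and 0 for the interaction. For the pathway list, which was added to the alternatives after the data were seen, these ranges were 3 to 10, 6 to 11, 21 to 24, 19 to 23 and 0. Its 8 calls in M-MDSCs became 5 in the model of all 16 libraries, 3 with the replicate block, 5 with GC content and length offsets and 1 with both, and its 9 in G-MDSCs became 3 with both. Without the library highest in erythroid markers in each group, also chosen after the data were seen, 0 and 1 members and 2 and 4 list genes were called in M-MDSCs and G-MDSCs, in groups of 3, with values such as 2.15 for *Gpx4* and 0.80 for *Sod2* in G-MDSCs and -1.25 for *Gclc* and 1.00 for *Pex14* in M-MDSCs. The libraries left out there were also the highest of their groups in proliferation markers. The replicate block changed no count of members between subsets. Where a setting removes libraries the groups are smaller, and otherwise the cause was not tested.

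Signs turned as follows. *Sod2* in M-MDSCs between genotypes became 0.048 with library size only, 0.35 with GC content and length offsets, 0.29 with these and the replicate block and 0.24 without the libraries highest in erythroid markers, and ranged from -0.34 to 0.14 without a library each. In G-MDSCs *Sod1* became -0.016 with the offsets, *Cat* -0.042 and *Txn1* -0.001 without the libraries highest in erythroid markers, and without a library each *Cat* ranged from -0.068 to 0.38, *Prdx2* from -0.94 to 0.017 and *Txn1* from -0.35 to 0.44. Between subsets, with library size only, *Prdx5* became -0.31 in WT and -0.064 in *Nlrp3*-/- mice and *Prdx6* -0.10 and -0.21. In the interaction *Sod1* became -0.021 with DESeq2 size factors and DESeq2, -0.016 with library size only, -0.023 with the offsets and the replicate block, and -0.076 with the offsets alone, *Gpx1* -0.05 and -0.013 with the offsets without and with the block, and *Prdx6* 0.25 without the libraries highest in erythroid markers. Without a library each, the interaction of *Sod1* ranged from -0.24 to 0.31, of *Gpx1* from -0.093 to 0.32, of *Gpx4* from -0.63 to 1.19 and of *Prdx6* from -0.32 to 0.10. Of 1576 alternative values 1408 kept their sign and their side of the thresholds, 92 lost a call, 32 gained one and 44 turned sign. Over all genes, the 1060 calls in M-MDSCs became 425 with the replicate block, 652 with GC content and length offsets and 39 with both, and the 1522 in G-MDSCs became 985, 981 and 384. Low counts limit *Gpx4* most, at 3 to 104 per library. They did not run with depth in WT M-MDSCs, where replicate 2 held 3 of 5933395 counts and replicate 4 held 19 of 2295967.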
